A study of Mus musculus with 3 samples.

Results

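The genes described here make cholesterol and fatty acids, control that synthesis, and move cholesterol out of the cell or store it. They number 36 of the 55536 annotated genes in the deposited gene tables. They were chosen as a named list, by symbol, without a cut on any measured value, but with earlier results of these data known. By known regulation, 20 of them were taken as targets of the SREBP factors (18 enzymes of the cholesterol pathway, Insig1 and Stard4). Another 4 were taken as targets of the LXR receptors (Abca1, Abcg1, Mylip and Srebf1). A list of its own holds 5 enzymes of fatty acid synthesis, which answer to SREBP and, most of them, also to LXR. The other 7 belong to none of these lists. All 36 had counts in each library and passed the filter on low counts.

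The RNA came from bone marrow-derived macrophages (BMDM), primary cells of the mouse strain C57BL/6J, and was the ribosomal RNA-depleted total RNA of their cytosolic fraction. All 3 libraries form 1 group, treated for 50 min with lipid A at 100 ng/ml, the part of bacterial lipopolysaccharide that binds Toll-like receptor 4. The labels number them as biological replicates 1, 2 and 3 (libraries 1, 2 and 3 below), give them 1 donor label, and record neither the animals' sex nor their age, so the p-values cover only how far these 3 samples differ, and that difference may be technical. No unstimulated sample was analysed here, and none of the values measures a change caused by lipid A.

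Cells hold their cholesterol within narrow bounds by opposing programs. When membrane cholesterol is low, SCAP carries the membrane-bound SREBP precursors to the Golgi, where they are cut to release factors that switch on the synthesis genes, while INSIG proteins hold SCAP back when sterol is plentiful. When cholesterol accumulates, its oxidised forms and late sterol precursors activate LXR, which raises the efflux pumps ABCA1 and ABCG1. Macrophages depend on this pair, since they take up the cholesterol of the cells and lipoproteins they engulf.

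Gene expected counts, which are estimated read numbers per gene, summed to 33044910, 36769402 and 36522216 in libraries 1, 2 and 3. A sum of 3 counts, the upper limit that a count of 0 would allow, is 0.0908, 0.0816 and 0.0821 in CPM (counts relative to the library's total), for counting error only. All 6 macrophage markers examined reached 1 TPM in each library, with a median of 299 TPM, where TPM is the share of all transcripts, a level per length. None of 17 markers of T, NK and B cells, neutrophils, erythroid, stromal and endothelial cells, adipocytes and hepatocytes did, and the highest was the endothelial gene Pecam1 at a mean of 0.27 TPM. Cd3e, Ly6g, Hbb-bs, Adipoq and Alb were listed at 0 in each library. TPM values of the median gene differed between libraries, and 5 small RNAs took 58.5%, 71.0% and 63.4% of TPM. The median log2(TPM + 1) of the 12231 genes tested was 2.93, 2.52 and 2.87, so differences between libraries are given below in normalised log2 CPM, which is a scale for 1 gene across libraries and not for levels between genes.

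The promoters of most SREBP targets examined shared sequence features. These genes were listed by known regulation, which may itself rest on such sites, so the shares describe the list and do not test it. RefSeq promoter windows (build GRCm38.p6, 250 bases before to 50 after the start) matched 29 of the 36 genes, and for genes with several the first listed was taken. Not matched were Fdps, Fdft1, Sqle, Stard4, Abcg1, Scd1 and Scd2. Both strands were searched for the NF-Y box CCAAT and the Sp1 box GGGCGG, 2 motifs of SREBP co-factors, and for the sterol element TCACNCCAC. The NF-Y box stood in 14 of 16 SREBP target windows (87.5%). Among the first promoters of all 27025 genes in that table, expressed or not, 37.9% held it. The Sp1 box stood in 15 of 16 (93.8%) against 35.9%. The exact sterol element stood in 1 of the 16, Hmgcs1, against 1.22% of all genes, and with at most 1 mismatch, a search added after seeing the data, in 7 of 16 (43.8%) against 23.98%. Of the 3 LXR targets matched, 2 held an NF-Y box and 2 an Sp1 box. Srebf1 entered with the window at the gene's 5′ end alone. The LXR direct repeat (AGGTCA, 4 free bases, AGGTCA again, at most 2 mismatches) was in none of the 29 windows and in 3.01% of all. Repeats with more mismatches were not searched for, so this result does not show that the windows lack an LXR site. A match is a stretch of letters and not a shown binding site.

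The windows below, 5′ to 3′ on the gene's strand, show 3 SREBP targets, the LXR receptor gene Nr1h3 and the LXR target Abca1. Capitals mark the sterol element, the NF-Y box and the Sp1 box, each on either strand. Hmgcs1 (chr13:119690101-119690400, plus strand) carried the only exact sterol element of the 29 and all 3 marked motifs. Idi1 (chr13:8885356-8885655, plus strand) and Lss (chr10:76531355-76531654, plus strand) were among the synthesis genes that varied most between libraries. Nr1h3 (chr2:91195067-91195366, minus strand), which varied the opposite way, held none of the marked motifs. Of the marked motifs, Abca1 (chr4:53159846-53160145, minus strand) held Sp1 boxes alone, and LXR sites were not marked.
Hmgcs1: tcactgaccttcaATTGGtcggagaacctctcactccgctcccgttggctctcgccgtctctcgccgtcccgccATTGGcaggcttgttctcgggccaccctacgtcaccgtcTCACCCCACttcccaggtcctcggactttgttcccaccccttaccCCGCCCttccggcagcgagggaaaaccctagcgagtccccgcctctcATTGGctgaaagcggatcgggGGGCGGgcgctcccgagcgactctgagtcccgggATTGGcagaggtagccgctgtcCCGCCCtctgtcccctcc
Idi1: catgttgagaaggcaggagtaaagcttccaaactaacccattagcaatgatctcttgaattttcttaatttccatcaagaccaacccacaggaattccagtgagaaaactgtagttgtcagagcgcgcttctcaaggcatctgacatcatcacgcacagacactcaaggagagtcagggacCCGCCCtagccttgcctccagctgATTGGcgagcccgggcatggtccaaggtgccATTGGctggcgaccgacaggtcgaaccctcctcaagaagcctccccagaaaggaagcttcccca
Lss: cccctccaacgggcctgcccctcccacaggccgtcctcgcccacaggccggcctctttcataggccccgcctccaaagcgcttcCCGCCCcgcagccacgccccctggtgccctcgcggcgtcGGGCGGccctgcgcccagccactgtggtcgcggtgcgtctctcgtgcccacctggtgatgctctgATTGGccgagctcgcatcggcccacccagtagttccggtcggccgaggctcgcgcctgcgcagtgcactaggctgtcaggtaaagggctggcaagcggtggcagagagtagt
Nr1h3: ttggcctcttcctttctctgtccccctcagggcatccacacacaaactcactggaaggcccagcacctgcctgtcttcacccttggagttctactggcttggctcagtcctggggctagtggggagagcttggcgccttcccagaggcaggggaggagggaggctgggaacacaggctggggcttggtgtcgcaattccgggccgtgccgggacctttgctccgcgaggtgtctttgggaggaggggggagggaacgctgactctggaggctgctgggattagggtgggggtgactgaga
Abca1: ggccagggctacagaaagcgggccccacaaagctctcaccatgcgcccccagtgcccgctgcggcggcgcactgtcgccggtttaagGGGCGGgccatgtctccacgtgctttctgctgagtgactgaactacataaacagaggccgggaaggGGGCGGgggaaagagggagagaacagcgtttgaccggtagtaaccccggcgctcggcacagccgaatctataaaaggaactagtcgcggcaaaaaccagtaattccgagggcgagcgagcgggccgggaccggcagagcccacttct

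**Figure D1:**
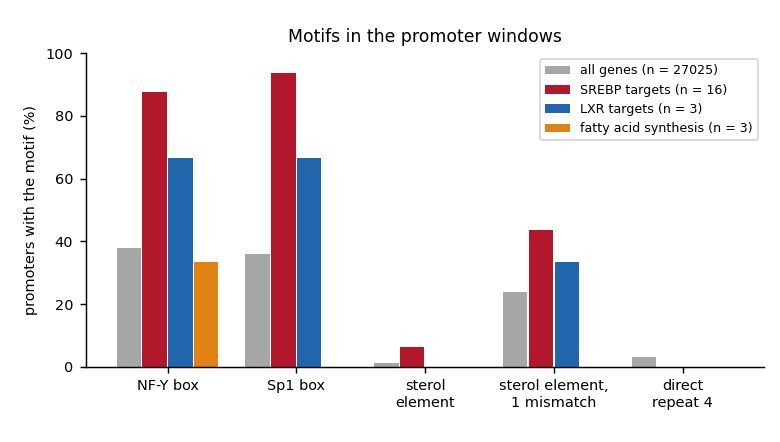
Share of promoter windows (%, y axis) holding each motif, for the first promoters of all 27025 genes, 16 SREBP targets, 3 LXR targets and 3 fatty acid synthesis genes. The NF-Y and Sp1 boxes stood in 87.5% and 93.8% of SREBP target windows and in 37.9% and 35.9% of all.

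Levels ranged from Soat1 at 236 TPM to Ch25h at 0.787 TPM, and 34 of the 36 genes reached 1 TPM in each library. A second set of deposited tables, in the layout of kallisto, gave lower mean TPM for each of the 36. There Soat1 stood at 98.4, Abca1 at 47.5 and Hmgcs1 at 15.3 TPM, so the levels below hold for the first set. In the mevalonate arm, which turns acetyl units into farnesyl diphosphate, Hmgcs1, the HMG-CoA synthase, was highest with 53.9, 29.6 and 45.2 TPM in libraries 1, 2 and 3 (42.9 ± 12.3, SD, n = 3). Fdps, which makes farnesyl diphosphate, followed with 22.4 ± 9.57 TPM, and Idi1, the isopentenyl diphosphate isomerase, with 16.3 ± 7.32 TPM. In each library Hmgcs1 was above Fdps and Fdps above Idi1, although the ranges of neighbours over the libraries overlapped. The remaining steps of the arm were lower and close together. Mvd, the mevalonate diphosphate decarboxylase, stood at 8.11 ± 3.27 TPM, Pmvk and Mvk, the kinases before it, at 5.49 ± 0.979 and 5.42 ± 1.56 TPM, and the thiolase gene Acat2 at 3.89 ± 1.92 TPM.

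In the sterol arm, which builds cholesterol from farnesyl diphosphate, 1 gene stood well above the others. Msmo1, an oxidase that removes methyl groups from the sterol ring, had 81.9, 35.9 and 44.1 TPM (54.0 ± 24.5), above every other gene of the arm in each library. Squalene epoxidase (Sqle) stood at 16.02 ± 7.01 TPM, the sterol desaturase Sc5d at 16.01 ± 6.42, the lanosterol demethylase Cyp51 at 12.8 ± 5.08, the sterol isomerase Ebp at 12.3 ± 1.68 and the reductase Dhcr7 at 10.1 ± 3.72 TPM. The ranges of these 5 over the libraries overlapped. The lowest enzymes of the arm were Nsdhl and Hsd17b7, which act with Msmo1 in removing those methyl groups, at 5.50 ± 2.11 and 2.68 ± 0.919 TPM, squalene synthase (Fdft1) at 5.16 ± 2.58, the reductase Tm7sf2 at 3.94 ± 1.18 and lanosterol synthase (Lss) at 3.39 ± 1.62 TPM. The Msmo1 level was 17.2, 22.5 and 11.6 times that of Lss in libraries 1, 2 and 3, and 10.7, 11.6 and 8.93 times in the second set of deposited tables.

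Among the control genes, each pair of related genes had 1 that was higher in all 3 libraries. Srebf2, whose product chiefly drives cholesterol synthesis, stood at 46.4, 24.6 and 34.2 TPM, and Srebf1, whose product chiefly drives fatty acid synthesis, at 14.6, 7.22 and 10.9 TPM, a ratio of 3.23 ± 0.148 (SD, n = 3). Insig1, itself an SREBP target, had 83.9, 36.7 and 75.1 TPM against 6.26, 4.94 and 6.09 TPM for Insig2, a ratio of 13.4, 7.43 and 12.3. The groups of values did not overlap in either pair. Scap, whose protein INSIG holds back, stood at 7.56 ± 1.67 TPM. Of the LXR receptors, Nr1h2 (LXR beta) had 30.0, 18.9 and 26.9 TPM and Nr1h3 (LXR alpha) 5.59, 8.41 and 9.98 TPM. Their ratio of 5.36, 2.25 and 2.70 was highest in library 1, where Nr1h2 was highest and Nr1h3 lowest.

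The 2 most abundant genes belonged to storage and efflux. Soat1, which esterifies cholesterol for storage in lipid droplets, had 299, 193 and 216 TPM, and Abca1, the pump that loads cholesterol onto apolipoprotein A-I, had 161, 128 and 118 TPM (136 ± 22.4). The ranges of these genes did not overlap. However, 21.3%, 28.9% and 36.2% of Soat1 TPM was assigned to a transcript of 366 bases that rested on 385, 519 and 661 counts. The main form, of 2925 bases, had 142, 98.6 and 103 TPM, so the gap to Abca1 was seen for the whole gene only. Abcg1, which passes cholesterol to HDL particles, followed at 52.8 ± 7.34 TPM, and Mylip, an E3 ligase that sends the LDL receptor to degradation, at 24.5 ± 5.01 TPM. Stard4, a sterol carrier, stood at 10.3 ± 3.52 TPM. Ch25h, which makes an oxysterol, rested on 41, 32 and 65 counts (exact Poisson 95% intervals 29.4 to 55.6, 21.9 to 45.2 and 50.2 to 82.9, for counting error only) and passed 1 TPM in library 3 alone.

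Fatty acid synthesis was led by the desaturase gene Scd2, with 91.6, 35.3 and 43.7 TPM against 5.25, 1.25 and 2.08 TPM for its paralog Scd1. Scd2 was thus 17.5, 28.2 and 20.99 times Scd1. The pair lies 87.6 kb apart on chromosome 19, and the deposited posterior SD, a measure of reads that could not be placed, was at most 0.144% of the Scd1 count and 0.0058% of the Scd2 count. Fatty acid synthase (Fasn) stood at 9.04 ± 4.85 TPM, acetyl-CoA carboxylase (Acaca) at 6.59 ± 0.930 and the elongase Elovl6 at 0.86 ± 0.405 TPM, with 1.32, 0.56 and 0.70 TPM in the 3 libraries.

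**Figure D2:**
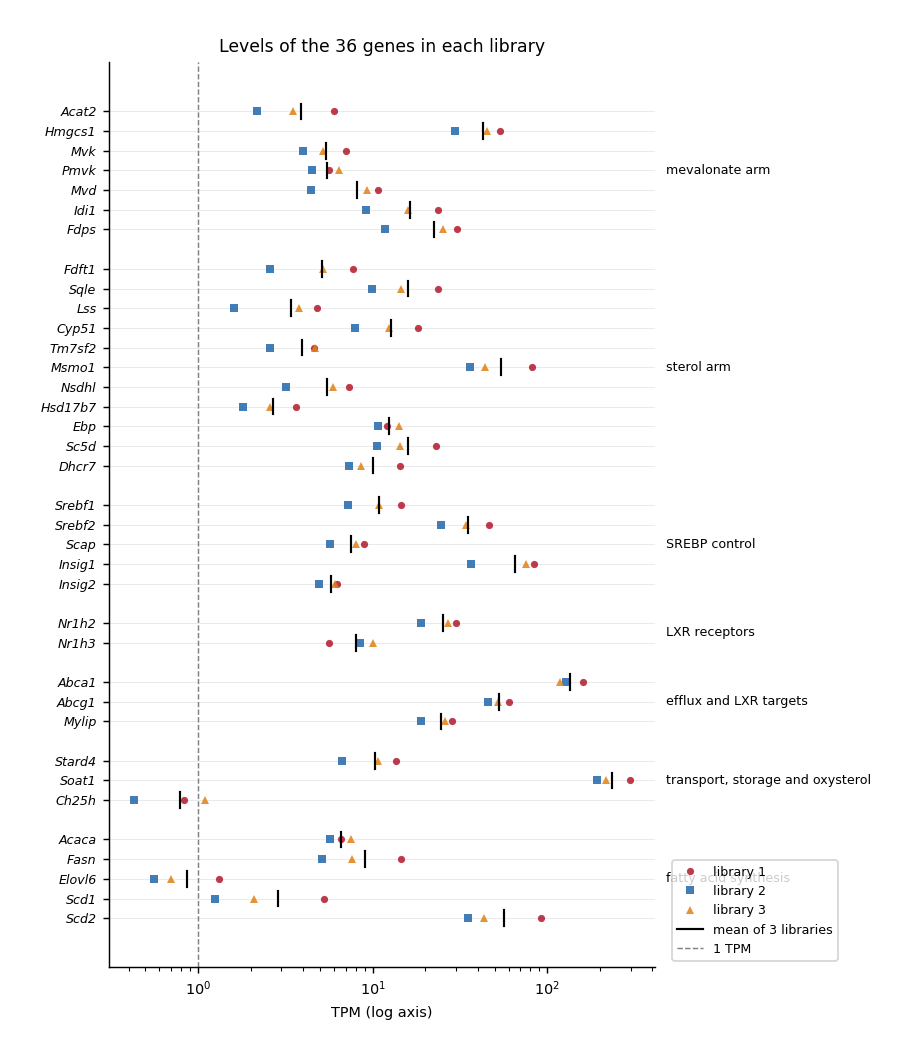
TPM (log axis) of each of the 36 genes in libraries 1, 2 and 3, with the mean as a black bar, grouped by role. Soat1 and Abca1 lie at the right, Ch25h and Elovl6 around the dashed line at 1 TPM, and most genes are lowest in library 2.

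SREBP targets and LXR targets were then compared within the stimulated cells. The median SREBP target stood at 10.2 TPM (20 genes, 2.68 to 65.2) and the median LXR target at 38.6 TPM (4 genes, 10.9 to 136), beside 5.89 TPM for the 12231 genes tested. The LXR median was 3.45, 4.63 and 3.90 times the SREBP median in libraries 1, 2 and 3 (SD 0.595). On the log2(TPM + 1) scale the difference, SREBP minus LXR, was -1.78 ± 0.16, negative in all 3 libraries. The ranges overlapped. By mean TPM, Insig1 and Msmo1 were above Abcg1, Mylip and Srebf1, and Hmgcs1 was above Mylip and Srebf1. Fdps, Idi1, Sqle, Sc5d, Cyp51 and Ebp were above Srebf1. Summed, the 20 SREBP targets took 0.114%, 0.0764% and 0.0940% of protein-coding TPM and the 4 LXR targets 0.0690%, 0.0752% and 0.0595%. The size of the difference rested on the make-up of the short LXR list: it was -2.32 without Srebf1 and -0.11 with the 5 fatty acid genes counted as LXR targets. Here and in the library differences below, Srebf1 entered as a whole gene. LXR is known to raise only its c form, described below, which held 7.12% of the gene's TPM on average. No p is given, since genes are not replicates.

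Several synthesis genes varied between the libraries, most of them with library 1 high. An edgeR goodness of fit test, which asks whether a gene varied between libraries more than genes of its level do, called 7 of the 36 genes at an adjusted p (Benjamini-Hochberg, over all genes) under 0.05. It called 203 of 12231 genes in all, or 1.66%. Idi1, Fdps, Fdft1, Lss, Scd1 and Scd2 were highest in library 1 (0.482% of all genes were called and highest there), and Nr1h3 was lowest in library 1 (0.752% of all genes were called and lowest there). At an unadjusted p under 0.05 stood 16 of the 36 (44.4%) and 784 of all genes (6.41%). Since the list was chosen with earlier results of these data known, its shares were not tested against those of all genes. In bulk RNA, fewer cells making a transcript and less of it per cell cannot be told apart.

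Scd1, the desaturase that makes monounsaturated fatty acids, varied most among the 36 (ENSMUSG00000037071.3, mm10 chromosome 19, 44394455 to 44407879, minus strand). Its log2 CPM were 4.70, 3.17 and 3.69 in libraries 1, 2 and 3, from 866, 321 and 478 counts, a 2.90-fold range (edgeR adjusted p = 1.23e-05). Library 1 was high and library 2 low. Scd2 (ENSMUSG00000025203.6, chromosome 19, 44293674 to 44306864, plus strand) had 9.26, 8.35 and 8.26, with library 1 alone high (2.00-fold, edgeR adjusted p = 0.0176).

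Fdft1, at the branch into sterol synthesis (ENSMUSG00000021273.10, chromosome 14, 63145150 to 63179578, minus strand), had log2 CPM of 4.77, 3.63 and 4.23, a 2.21-fold range (edgeR adjusted p = 0.00634). Its count is uncertain, since 18.3% of its exon bases overlap Ctsb, a lysosomal protease gene at 3326 TPM on the opposite strand, and the strand setting of the counting is not given in the sources used here. Lss, which closes the sterol rings (ENSMUSG00000033105.12, chromosome 10, 76531588 to 76557138, plus strand), had 4.80, 3.73 and 4.34 (2.11-fold, edgeR adjusted p = 0.0139). Both were highest in library 1 and lowest in library 2, with library 3 between. Idi1 (ENSMUSG00000058258.14, chromosome 13, 8885501 to 8892451, plus strand) kept that order with 6.39, 5.48 and 5.88 (1.88-fold, edgeR adjusted p = 0.0231). Fdps (ENSMUSG00000059743.12, chromosome 3, 89093588 to 89101959, minus strand) had 5.32, 4.42 and 5.15 (1.85-fold, edgeR adjusted p = 0.0289), with library 2 alone low.

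Nr1h3, the LXR alpha gene (ENSMUSG00000002108.10, chromosome 2, 91184061 to 91202834, minus strand), had log2 CPM of 3.51, 4.55 and 4.41 from 379, 842 and 791 counts, a 2.06-fold range (edgeR adjusted p = 0.0147). Library 1 alone was low, where the synthesis genes called were high. This call was lost with the second set of deposited tables (edgeR adjusted p = 0.059), with a common dispersion (0.0792) and without any 1 library (0.0565 to 1.00). Its partner gene Nr1h2 had 6.01, 5.80 and 5.90 and was not called. Just short of the threshold were Sqle (edgeR adjusted p = 0.0572) and Msmo1 (0.0875), both highest in library 1. No other gene of the 36 had an adjusted p under 0.1.

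The order of the libraries ran through the list beyond the genes called. Library 1 was highest for 28 of the 36 genes, 17 of the 20 SREBP targets and all 5 fatty acid genes, against 36.9% of the 12231 genes tested. Of the SREBP targets, 15 of 20 were both highest in library 1 and lowest in library 2, against 19.7% of all genes tested. Pmvk, Ebp and Tm7sf2 were the SREBP targets that were not highest in library 1, with ranges of 1.29, 1.19 and 1.49-fold. The median range between libraries was 0.73 in log2 CPM for SREBP targets, 0.28 for LXR targets and 0.28 for all genes tested.

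The lists differed in how they followed the libraries. As deviations from each gene's own mean log2 CPM, the median SREBP target stood at 0.34, -0.32 and 0.02 in libraries 1, 2 and 3, the median fatty acid gene at 0.55, -0.21 and -0.16, and the median LXR target at 0.08, 0.01 and -0.13. SREBP minus LXR was 0.26, -0.34 and 0.15, so the spread between libraries 1 and 2 was 0.59. Abca1, with 11.01, 11.11 and 10.63, and Abcg1, with 8.76, 8.82 and 8.59, were highest in library 2, where 16 of the 20 SREBP targets were lowest. Mylip (6.69, 6.56 and 6.63) and Srebf1 (5.91, 5.62 and 5.59) were highest in library 1. None of these 4 was called, and 0 of them had an unadjusted p under 0.05 in the edgeR test. Among the control genes, Insig1 followed the synthesis genes in direction (8.02, 7.29 and 7.96) without being called (edgeR adjusted p = 0.313), and Scap hardly varied (5.29, 5.34 and 5.34).

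**Figure D3:**
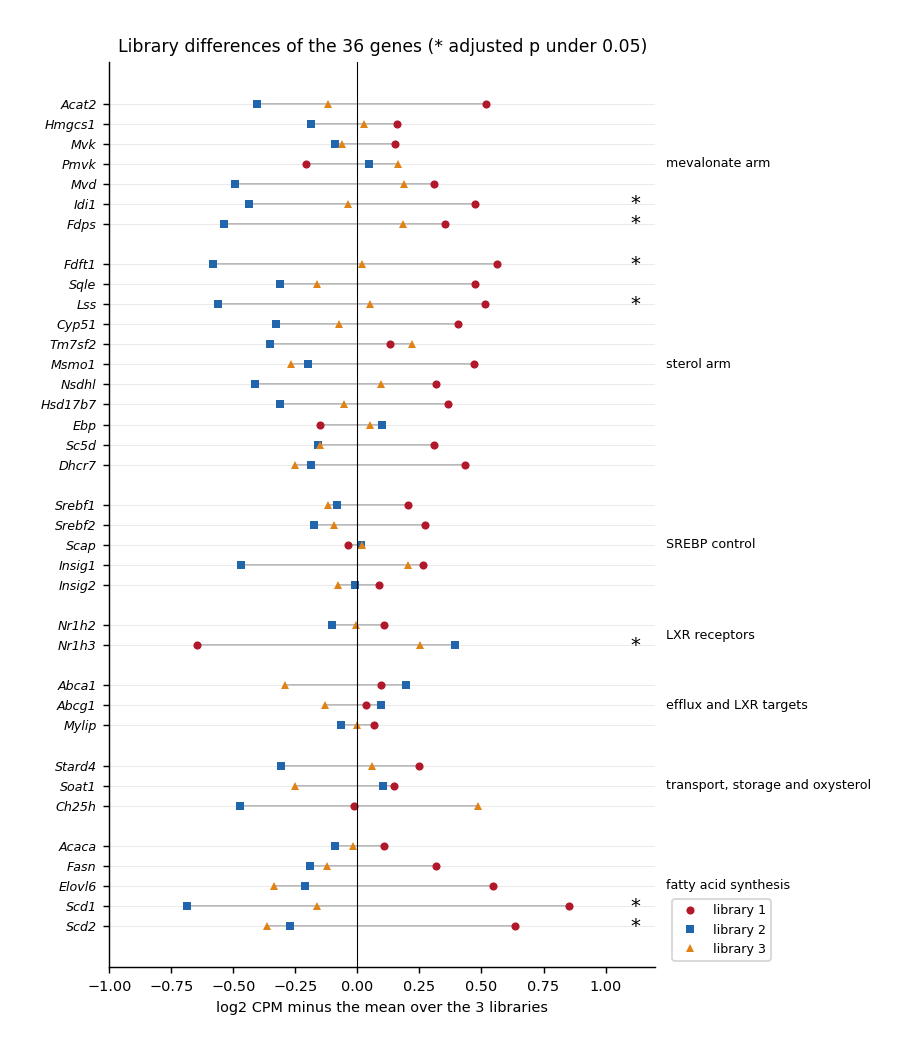
Log2 CPM of each gene minus its mean over the 3 libraries (x axis), grouped by role, with the range as a grey line and an asterisk at the 7 genes called. Most synthesis genes have library 1 at the right and library 2 at the left, while Nr1h3 is reversed.

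**Figure D4:**
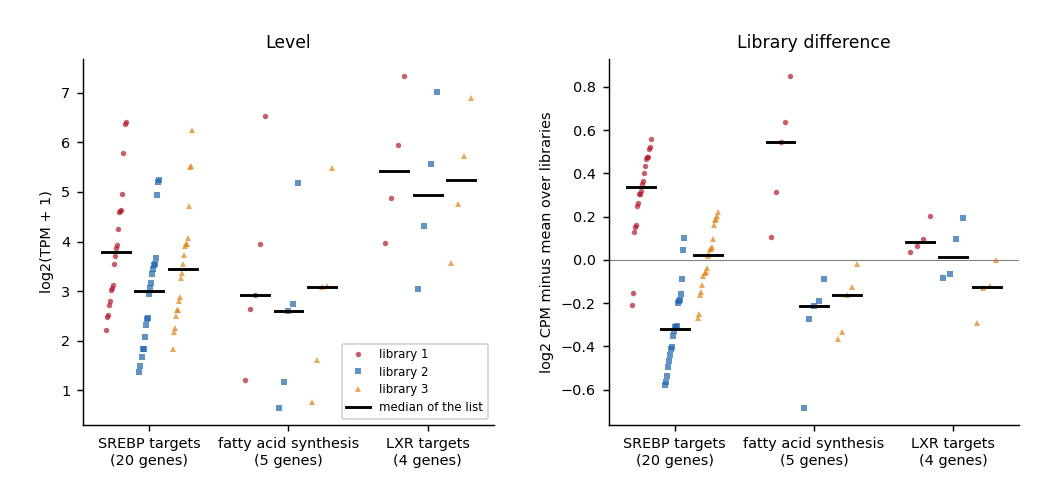
Level as log2(TPM + 1) (left) and library difference as log2 CPM minus the mean over libraries (right), 1 point a gene, for 20 SREBP targets, 5 fatty acid synthesis genes and 4 LXR targets, with list medians as bars. LXR medians lie higher in level in each library, and SREBP medians fall from 0.34 in library 1 to -0.32 in library 2.

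How many genes were called depended on single libraries. Without library 1, 1 of the 36 was called (Fdps), without library 2, 1 (Scd1), and without library 3, 4 (Fdft1, Idi1, Lss and Scd1), while the calls over all genes were 132, 91 and 89. With 1 common dispersion for all genes, 2 of the 36 were called (Scd1 and Scd2), while the calls over all genes rose from 203 to 298. Other measures moved between these libraries too. Mitochondrial RNA took 0.993%, 0.634% and 0.296% of counts in libraries 1, 2 and 3, and 5 nuclear RNAs, among them Malat1 and Neat1, took 0.243%, 0.583% and 0.136%. The median deviation of these nuclear RNAs was -0.38, 0.85 and -0.69 in log2 CPM, highest in library 2, where SREBP targets were lowest. That of 5 interferon-linked genes (Cxcl10, Ifnb1, Ifit1, Isg15 and Rsad2) was 0.60, -0.74 and 0.51, low in library 2 as the SREBP targets were. Their part in the library differences was not tested.

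Srebf1 makes an a form and a c form from separate starts, of which LXR is known to raise the c form. Transcripts were told apart by whether they carry the start of either form. The a form (1 transcript) had 8.91, 6.45 and 7.61 TPM and the c form (2 transcripts, 1 of them listed at 0) 1.97, 0.20 and 0.56 TPM. The a form exceeded the c form in each library, by 4.52, 32.3 and 13.6 times, and held 73.3% ± 14.6 of the gene's TPM. The c form rested on 248, 37.8 and 82.5 counts in libraries 1, 2 and 3, and the a form on 1545, 1665 and 1546. The other 9 transcripts, with the start of neither form, held 25.6%, 7.89% and 25.4%, more than the c form in each library. Most of them are short and have no annotated coding sequence, so which form they belong to is not known. The one of 367 bases had 13.5%, 0% and 14.3% of TPM on 12, 0 and 13.3 counts. In the second set of deposited transcript tables the ratios of the a form to the c form were 2.12, 10.6 and 5.65, so the direction was shared and the size was not. The c form was highest in library 1 and lowest in library 2, the order of most SREBP targets.

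**Figure D5:**
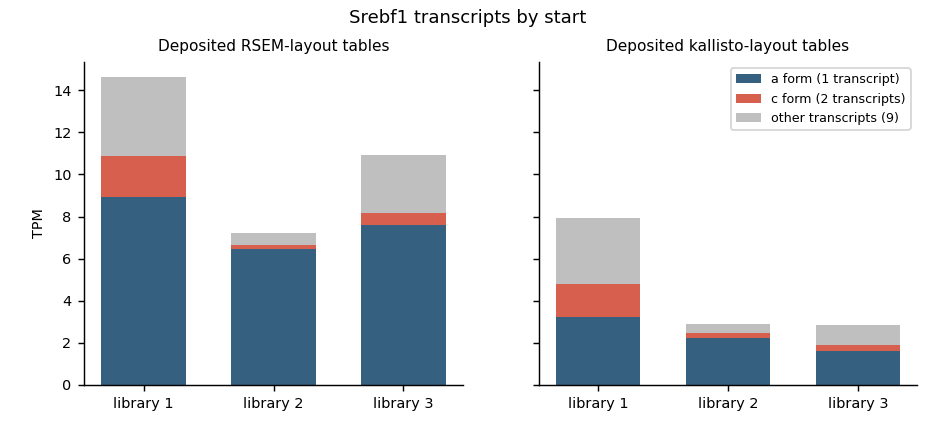
TPM of Srebf1 transcripts (y axis) in libraries 1, 2 and 3, stacked by start, from both sets of deposited tables. The a form is the largest portion in each bar but the c form's portion differs between libraries, from 0.20 to 1.97 TPM in the left panel.

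Most of the 36 genes were read out chiefly as coding transcripts. A transcript annotated as retaining an intron existed for 24 of them, and its share of the gene's TPM was under 5% for 19 and 10% or more for 3. Srebf2 had 21.1%, 18.9% and 19.6% in such transcripts, close in all libraries. Fasn had 38.2%, 6.28% and 13.5%, highest in library 1, but a mean of 6.08% in the second set of tables against 19.3% in the first. The largest of these Fasn transcripts by mean share, of 976 bases, rested on 74.9, 5.28 and 36.7 of the gene's 3554, 2694 and 2926 counts. TPM is per length, so such a short transcript holds a larger share of TPM than of reads. Lss had 18.9%, 11.2% and 9.21%, and its mean of 13.1% was 8.39% in the second set, where its coding share was 54.5% in place of 81.7%. In that set 2 genes reached 10%, Srebf2 and Nr1h2 (11.2%). Apart from introns, 45.2%, 35.6% and 33.3% of Msmo1 TPM was assigned to a processed transcript of 1329 bases with no annotated coding sequence, against 38.5%, 18.6% and 18.6% in the second set of tables, so its level above counts more than the coding form, which alone had 44.6 TPM in library 1.

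Of 37 further genes of these pathways, 34 reached 1 TPM in each library and 1 of the 36 tested was called, again against 1.66% of all genes. This was Fads2, a desaturase of polyunsaturated fatty acids and an SREBP target, with log2 CPM of 4.39, 2.56 and 3.54 and the library order of Scd1 (edgeR adjusted p = 3.77e-06). The most abundant were Apoe, the apolipoprotein that accepts exported cholesterol and an LXR target, at 2049 ± 453 TPM, the lysosomal cholesterol ester hydrolase Lipa at 292 ± 54.0 TPM and the lysosomal cholesterol carrier Npc2 at 265 ± 35.6 TPM. Apoe was lowest in library 1, with log2 CPM of 10.93, 11.77 and 11.27, and was not called (edgeR adjusted p = 0.553). The median range between libraries was 0.36 in log2 CPM for the 14 further SREBP pathway genes, of which 10 were highest in library 1, and 0.20 for the 9 LXR partners and targets, of which 4 were. It was 0.28 for all genes tested.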

How the data were processed

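Total RNA-seq of 3 libraries of 1 group was analysed from the deposited tables. Per the labels, the authors used mm10, and the deposited annotation identifiers are those of GENCODE M21. The authors deposited expected counts and TPM per gene and per transcript in the layout of RSEM, and estimated counts and TPM per transcript in the layout of kallisto. Quantification tools, versions and strand setting, not given in the sources used here, are therefore left unnamed. Posterior SDs of counts, deposited beside them, were at most 1.02% of the count for the 36 genes, except 5.25% for Tm7sf2, which shares exon bases with Vps51.

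The members and gene lists were chosen with earlier results of these data known. All members are accounted for, and of the other pathway genes those called and the 3 with the highest mean TPM are named. Expected counts were rounded and tested with edgeR 4.0.16 (R 4.3.3): filterByExpr, TMM scaling, trended dispersion, and each gene's residual deviance against chi-square, with Benjamini-Hochberg adjustment over 12231 genes at 0.05. The step was tested on simulated counts with known changes. Log2 CPM carry a prior count of 0.5, and levels on the log2 scale a pseudocount of 1 TPM. A fold change is the highest over the lowest library. Rows with number identifiers (26248, all at 0), spike-ins and phiX (97 rows, at most 0.365% of counts) were left out, and 1 cell type marker is not reported here. DESeq2 1.42.0 size factors, no filter, a common dispersion, the second set of tables, other lists and leaving out each library were tried as alternatives. Promoters and motifs were read from RefSeq windows, and overlaps from GENCODE M21. Python 3.11.15 did the rest.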

Additional observations from a re-analysis of the deposited data

How the results depend on the processing

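No paired analysis was possible because all 3 libraries belong to 1 group. The median difference in level, SREBP minus LXR targets, was -1.78 on the log2(TPM + 1) scale and kept its sign in every alternative run. It was -1.62 with the kallisto-layout TPM and -2.32 without Srebf1. With fatty acid genes added to the SREBP targets it was -1.96, and with them added to the LXR targets -0.11. Without the 4 members that overlap an expressed gene (Cyp51, Fdft1, Tm7sf2 and Srebf1) it was -2.24, an alternative chosen after seeing the data. That run also left out Srebf1, so its shift cannot be credited to the overlaps. Leaving out 1 library gave -1.86 to -1.70. The library difference of 0.59 between the lists was 0.48 to 0.66 under its alternatives.

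The 7 members called became 2 with a common dispersion, under which all genes called rose from 203 to 298, and 1 to 4 without 1 library, where fewer samples enter the test. All genes called became 89 to 132 without 1 library. With kallisto-layout counts 6 were called, of which 5 were among the 7, and Sqle was the other, while Idi1 (adjusted p = 0.0797) and Nr1h3 (0.059) lost their call. Without a filter on low counts 6 of the 7 were called and Fdps was not (0.0768). DESeq2 size factors called the same 7. Over single members and these settings, 228 of the results kept their side of the threshold, 23 lost it and 1 gained it. The a form's share of Srebf1 was 58.1% in the kallisto layout against 73.3%. The sterol element stood in 7 SREBP target promoters with 1 mismatch, chosen after seeing the data, against 1. Causes were not tested. Members at 1 TPM or more numbered 34, 29 in the kallisto layout and 35 at 0.5 TPM. The few counts of Ch25h (32 to 65) limit what could be detected for it.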
